A study of Mus musculus with 30 samples.

Results

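The interferon response genes described here are 9 mouse genes: the RNA sensors Ddx58 (RIG-I) and Ifih1 (MDA5), the transcription factors Stat2, Irf9, Irf1 and Irf7, and the effectors Isg15, Ifit1 and Ifit3. They were chosen by name and not by a measured value, because inhibition of the histone methyltransferases G9a and Glp can raise interferon responses. Earlier results of these data were known when the choice was made. All 9 were found in the GENCODE annotation of mouse build 38 (mm10), among 21951 protein-coding genes and 55450 genes in all. For each gene, H3K27ac peaks were taken within 2.5 kb of any annotated start site (called promoter peaks below) and within 50 kb of the gene.

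The series holds 30 samples of lung adenocarcinoma cells in 12 groups, from the mouse cell lines CK1750 and Tnm2. Both lines were grown in DMEM with fetal bovine serum, with the solvent DMSO or with 1 µM of UNC0638, an inhibitor of G9a and Glp, which the study's methods describe as culture over several days with the drug renewed on the way. Acetylation of histone H3 at lysine 27 (H3K27ac), which marks promoters and enhancers in use, was mapped by chromatin immunoprecipitation and sequencing in 9 samples: 3 of CK1750 with DMSO, and 2 each of CK1750 with UNC0638, Tnm2 with DMSO and Tnm2 with UNC0638. The other 21 samples, of H3K9me2 and input DNA in 8 groups, were not analysed here. The labels tie the samples of each H3K27ac group to 1 merged peak list, and the 3 CK1750 DMSO samples carry only 2 replicate numbers because 1 is a second sequencing run. Both CK1750 UNC0638 samples carry the same number. The labels give fewer replicate numbers in each group than the study's methods state for its ChIP-seq experiments, and this was not resolved. With 1 list per group there is no spread between replicates, and no difference between lists could be tested. What differs between the lines is known for these 2 lines only.

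The CK1750 lists hold 27367 (DMSO) and 24601 (UNC0638) peaks, and the Tnm2 lists 30641 and 18794. Where 4 values follow each other below, they are in this order of lists. Their depth in reads is unknown, and a score near the calling cutoff of 50 can be passed in one list and missed in another through depth alone. Fewer peaks from lower depth and fewer peaks from less acetylation cannot be told apart. Promoter peaks were found at 6, 6, 6 and 7 of 8 epithelial marker genes, Nkx2-1, Krt8 and Krt18 in every list and Epcam in none. The 6 immune marker genes had 0 promoter peaks in every list. Of 4 endothelial markers, Pecam1 had a peak in both Tnm2 lists. Of 5 fibroblast markers, Col1a1 had a peak in all lists but Tnm2 with UNC0638.

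Type I interferon signalling starts when sensors such as RIG-I and MDA5 bind viral or double-stranded RNA and drive the production of interferon. Secreted interferon acts through its receptor and Jak kinases on Stat2, which works with Irf9 in the nucleus. The complex that holds both binds the interferon-stimulated response element (ISRE) in the promoters of effector genes such as Isg15 and the Ifit family, while the GAS element, as in the promoter of Irf1, answers most of all to interferon gamma. Several of the members, the sensors and Irf7 among them, are themselves induced by interferon. In epithelial cells the pathway has a basal level that differs between cell states.

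To show which members carry these elements at their start, RefSeq promoter windows (GRCm38.p6, 250 bases before to 50 bases after a start) were searched for an ISRE core, GAAANNGAAA or its reverse complement TTTCNNTTTC, and for a GAS core, TTCNNNGAA, which is its own reverse complement. All 9 members had a window, 11 windows in all. The ISRE core was found in 6 members with 10 matches in all, overlapping matches counted each. Among all windows, 3.44% of 32851 held an ISRE core, and 3.99% of 27025 genes had it in at least 1 window. The GAS core was found in 1 member, Irf1, and in 8.3% of all windows (9.55% of genes). These matches are letters only and do not show that a factor binds there. Printed below are the 250 bases before the start of the 3 effectors, which differ in their peaks, and of Stat2 and Irf1, the factors with a match before the start, 5′ to 3′ on the strand of the gene, with matches in capitals. Their positions are chr4:156200819-156201068 (minus strand) for Isg15, chr19:34640639-34640888 (plus) for Ifit1, chr19:34583279-34583528 (plus) for Ifit3, chr10:128270248-128270497 (plus) for Stat2 and chr11:53769764-53770013 (plus) for the outer of the 2 Irf1 windows.
Isg15: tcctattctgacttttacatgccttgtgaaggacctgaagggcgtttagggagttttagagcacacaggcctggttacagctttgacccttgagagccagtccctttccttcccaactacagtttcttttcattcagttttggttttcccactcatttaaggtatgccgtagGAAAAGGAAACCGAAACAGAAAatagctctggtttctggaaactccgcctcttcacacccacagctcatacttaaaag
Ifit1: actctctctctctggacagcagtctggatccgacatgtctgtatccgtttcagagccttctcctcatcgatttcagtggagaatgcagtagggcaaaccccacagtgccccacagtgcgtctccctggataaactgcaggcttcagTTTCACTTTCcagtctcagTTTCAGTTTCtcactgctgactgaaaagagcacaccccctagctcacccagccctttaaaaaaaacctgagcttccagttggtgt
Ifit3: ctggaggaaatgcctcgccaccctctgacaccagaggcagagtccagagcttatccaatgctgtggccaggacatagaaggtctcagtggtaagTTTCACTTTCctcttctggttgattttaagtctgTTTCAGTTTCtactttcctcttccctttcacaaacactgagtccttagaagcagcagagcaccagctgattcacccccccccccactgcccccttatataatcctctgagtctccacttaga
Stat2: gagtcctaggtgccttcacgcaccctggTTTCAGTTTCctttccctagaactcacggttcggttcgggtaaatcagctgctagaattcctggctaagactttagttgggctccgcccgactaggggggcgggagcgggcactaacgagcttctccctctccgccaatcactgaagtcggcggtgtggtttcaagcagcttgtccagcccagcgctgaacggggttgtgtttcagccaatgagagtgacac
Irf1: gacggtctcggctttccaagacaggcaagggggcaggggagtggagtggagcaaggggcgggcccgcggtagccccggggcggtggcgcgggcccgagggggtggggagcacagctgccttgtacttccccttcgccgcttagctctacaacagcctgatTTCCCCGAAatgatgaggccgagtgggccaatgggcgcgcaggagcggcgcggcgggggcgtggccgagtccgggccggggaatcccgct

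Isg15 had 3 overlapping ISRE cores, which begin 78, 72 and 66 bases before the start. Ifit1 had 2 on the opposite strand, 104 and 85 bases before the start, and Ifit3 had 2 with the same letters, 156 and 122 bases before it. The Stat2 match began 222 bases and the Irf1 GAS core 90 bases before the start. The matches of Ddx58 (TTTCGATTTC) and Ifih1 (GAAACAGAAA) began 2 and 32 bases after the start, and no match was found in the windows of Irf9 and Irf7.

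Coverage by H3K27ac peaks differed between windows that held the same core. The whole window of 300 bases lay in a peak in all 4 lists at Ifit3 and Ifih1, and at Ifit1 it did so only in Tnm2 with DMSO. At Isg15, which has the most ISRE cores, 0 bases of the window lay in a peak in any list. At Stat2 186 bases were covered in CK1750 with UNC0638 and 0 in the other lists. The ISRE core of Stat2 lay upstream of that peak, so the core itself was covered in no list. At Ddx58 300, 0, 203 and 0 bases were covered, and the peak of untreated Tnm2 did not reach the core. The outer Irf1 window was fully covered in all lists but Tnm2 with UNC0638, where 0 bases were. The windows also differ in base composition. The 2 Irf1 windows had 69.3 and 75% G and C with 32 and 43 CpG dinucleotides, and the Ifit3 window had 50.3% with 1 CpG, against a median of 52.7% over all windows.

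Of the 9 members, 8 had a promoter peak in untreated CK1750 and 7 after treatment. For Tnm2 the numbers were 7 untreated and 4 treated. Among all protein-coding genes, 50% and 49.1% had a promoter peak in the CK1750 lists, 49.4% and 41.3% in the Tnm2 lists. The members' share in treated Tnm2 (44.4%) was thus close to that of all genes, while the other 3 shares (88.9, 77.8 and 77.8%) were above it. Ifih1, Irf9, Irf7 and Ifit3 had a promoter peak in all lists, as did 39.2% of protein-coding genes. Each member had one in at least 1 list.

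**Figure D1:**
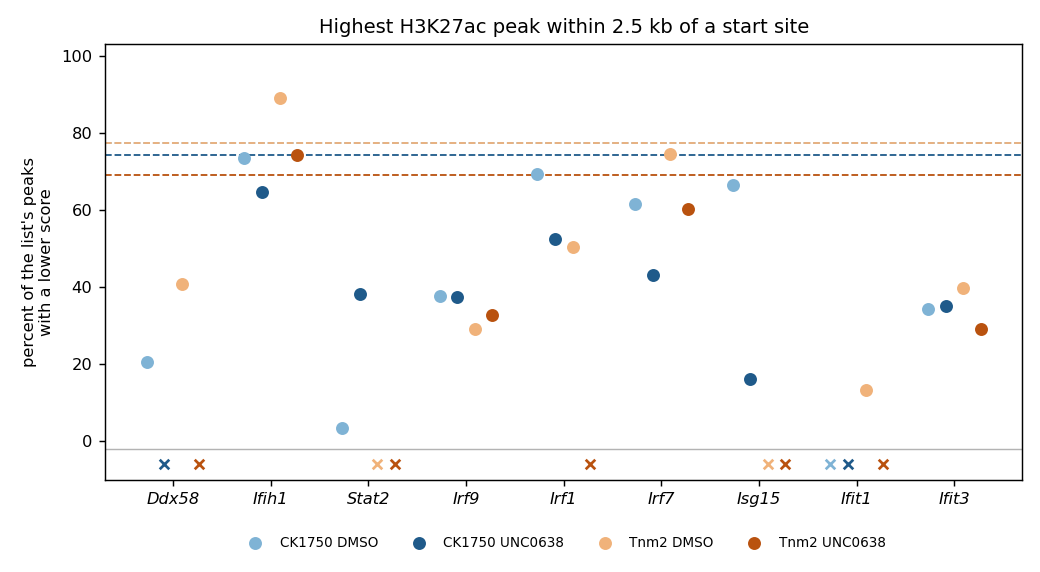
Percentile of the highest promoter peak of each member (y axis, percent of the peaks of a list with a lower score) in the 4 lists, with a cross below the line where a list has no promoter peak. Dashed lines are the medians over all protein-coding genes with a promoter peak, 77.2 and 77.3 for the DMSO lists, which overlie each other, 74.1 for treated CK1750 and 69.1 for treated Tnm2; all points but Ifih1 in Tnm2 lie below the line of their list.

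Scores grow with depth, so peaks were compared by their percentile, the share of peaks in the same list with a lower score. The highest promoter peaks of the members had median percentiles of 49.5, 38.2, 40.7 and 46.5. Over all protein-coding genes with a promoter peak the medians were 77.2, 74.1, 77.3 and 69.1. A percentile also depends on how many weak peaks a list holds, and the Tnm2 lists differ most in length. Directions between lists were therefore also read from the 18794 highest-scoring peaks of every list (equally long lists), and both are given where they differ. The members sat lower in each list than the middle promoter, Ifih1 in both Tnm2 lists excepted. Scores under 100 were found at 3, 1, 2 and 2 members, against 9.92, 9.33, 11.2 and 22.6% of all genes with a promoter peak.

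Of the sensors, Ifih1, which encodes the receptor for long double-stranded RNA, had the strongest promoter peak of the set. It covered the start of the gene in every list (chr2:62645282-62646782 in the 4 lists joined). Its percentile was 73.4 with DMSO against 64.7 with UNC0638 for CK1750, and 88.9 against 74.2 for Tnm2 (scores 423.07, 314.8, 749.65 and 235.46). Ifih1 thus stood lower with UNC0638 in both lines and higher in Tnm2 than in CK1750 under both treatments, with equally long lists as well (61.3, 53.8, 82 and 74.2).

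Ddx58 encodes RIG-I, the sensor of short RNA with a triphosphate end. Its promoter peak was present in both DMSO lists, at percentile 20.6 in CK1750 (chr4:40239699-40240219, score 67.06) and 40.7 in Tnm2 (chr4:40239873-40240357, score 108.37), and in neither UNC0638 list. The nearest UNC0638 peak lay 29.4 kb from the outermost start in CK1750 and 28.8 kb away in Tnm2. In equally long lists only the peak of untreated Tnm2 was kept (percentile 3.26). In the full lists Ddx58 was the only member with a peak in both DMSO lists and in neither UNC0638 list. This pattern was shared by 146 protein-coding genes (0.665%), and by 0 of the 84 other genes of the pathway lists used below.

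Of the factors, Stat2 had a promoter peak in CK1750 only. With DMSO it was among the weakest of its list, at percentile 3.33 (chr10:128270577-128271007, score 52.04), and it began 18 bases after the outermost start. With UNC0638 it was wider, covered that start and stood at percentile 38.2 (chr10:128270362-128271078, score 120.79). The difference of 34.9 was matched or exceeded at 0.479% of the 10445 genes with a promoter peak in both CK1750 lists. This share depends on where a gene began. Stat2, at 3.33, could hardly stand lower and be kept, while the median gene of the DMSO list, at 77.2, could not stand higher by 34.9. Genes that also began low were not set apart. The DMSO score lies just above the cutoff of 50, and with equally long lists the DMSO peak was not among those kept, so that Stat2 had a promoter peak in treated CK1750 only (percentile 19.1). In Tnm2 the nearest peak to the outermost Stat2 start was 13.5 kb away with DMSO and 31.9 kb away with UNC0638.

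Irf9, the DNA-binding partner of Stat2, had 1 promoter peak at the same place in every list (chr14:55603930-55604775 joined), over an annotated start inside the gene rather than the outermost start. Its percentiles lay close together, at 37.7, 37.3, 29 and 32.7. In equally long lists it stood at 9.26 and 17.9 in CK1750, was not kept in untreated Tnm2 and stood at 32.7 in treated Tnm2, so that the closeness of the values depends on the full lists.

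Irf1 encodes a factor induced through the GAS element, and its promoter peak was present in all lists but Tnm2 with UNC0638. It stood at percentile 69.2 in CK1750 with DMSO and 52.5 with UNC0638 (scores 340.55 and 195.74), and at 50.3 in Tnm2 with DMSO (score 141.19). In these 3 lists the peak covered the outermost start (chr11:53769324-53770652 joined). Another region, from -8.74 to -4.88 kb relative to that start, at the microRNA gene Mir7671, held a peak in all lists, at percentiles of 89.5, 91.5, 94.3 and 77.4. In treated Tnm2 the Irf1 neighbourhood thus had a peak upstream and none at the gene's own start, and the nearest peak lay 4.91 kb away.

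The presence pattern of Irf1, with treated Tnm2 as the only list without a promoter peak, was shared by 1314 protein-coding genes (5.99%). Among the pathway genes these were Irf3, Mavs, Ticam1, Uba7, Herc6, Ifi35 and Tnfaip3. Irf3 and the adaptors Mavs and Ticam1 act between sensors and interferon production, and Uba7 and Herc6 belong to the enzymes that attach Isg15 to proteins.

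Irf7, which amplifies the production of interferon alpha, had a promoter peak in all lists, at percentiles of 61.4, 43, 74.6 and 60.3 (scores 239.22, 140.97, 344.1 and 153.65). This peak did not cover a start: it lay from -3.32 to -1.88 kb relative to the outermost start (chr7:141268358-141269805 joined), with no start of any other gene within 1 kb. A peak over the start of Irf7 itself was present in CK1750 only, at percentile 31 with DMSO and 34.6 with UNC0638 (chr7:141265848-141266910 joined). In CK1750 the upstream region stood lower with UNC0638, also with equally long lists (43.8 and 25.3). In Tnm2 the direction turned with equally long lists, to 58.5 with DMSO and 60.3 with UNC0638.

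Isg15 encodes a ubiquitin-like protein that is attached to target proteins and is also secreted. It counted as having a promoter peak in both CK1750 lists, at percentile 66.5 with DMSO and 16.2 with UNC0638, but these were different regions at the rim of the window. The DMSO peak (chr4:156197572-156198380) lay 2438 to 3246 bases downstream of the start, within 1 kb of a start of Agrn. The UNC0638 peak (chr4:156203180-156203909) lay 2362 to 3091 bases upstream, by a start of AW011738. The region by Agrn had a peak in all lists (percentiles 66.5, 63.2, 65 and 6.08), which missed the window of Isg15 in 3 of them. In Tnm2 the nearest peak lay 2.59 kb from the start with DMSO and 2.76 kb with UNC0638. No list had a peak within 1 kb of the start of Isg15, so its values say nothing of acetylation at its own start.

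Ifit1 and Ifit3 encode tetratricopeptide proteins that bind viral RNA or the complexes that do so, and they lie in 1 gene cluster on chromosome 19. Ifit1 had a promoter peak in Tnm2 with DMSO only, at percentile 13.3 (chr19:34640438-34641010, score 59.74). This peak also lay within 1 kb of a start of Ifit1bl2, so it cannot be given to Ifit1 alone. In the other 3 lists the nearest peak was 32.8 kb from the start, at Ifit3b. The pattern of Ifit1 was shared by 350 protein-coding genes (1.59%), of the pathway genes Irf8, Ifit1bl2 and Gbp3.

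Ifit3 had a peak over its start in every list (chr19:34582603-34583710 joined). It stood at percentile 34.2 with DMSO and 35 with UNC0638 in CK1750, and at 39.8 and 29.1 in Tnm2 (scores 92.56, 108.85, 106.01 and 77.46). It stood higher with UNC0638 in both lines when the lists were equally long, at 4.12 and 14.9 in CK1750 and 1.86 and 29.1 in Tnm2, so the direction in Tnm2 turned. From these DMSO values a kept peak could stand lower by at most 4.12 and 1.86, so the cut itself favoured a higher standing of Ifit3. Its neighbours in the cluster also had a peak in every list. Ifit2 stood at 80.3, 83.2, 90 and 72.8 and Ifit3b at 59.4, 46.5, 54.3 and 48.3, higher than Ifit3 in each. Members of the cluster have similar sequences, and how reads that match several of them were placed is not stated.

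**Figure D2:**
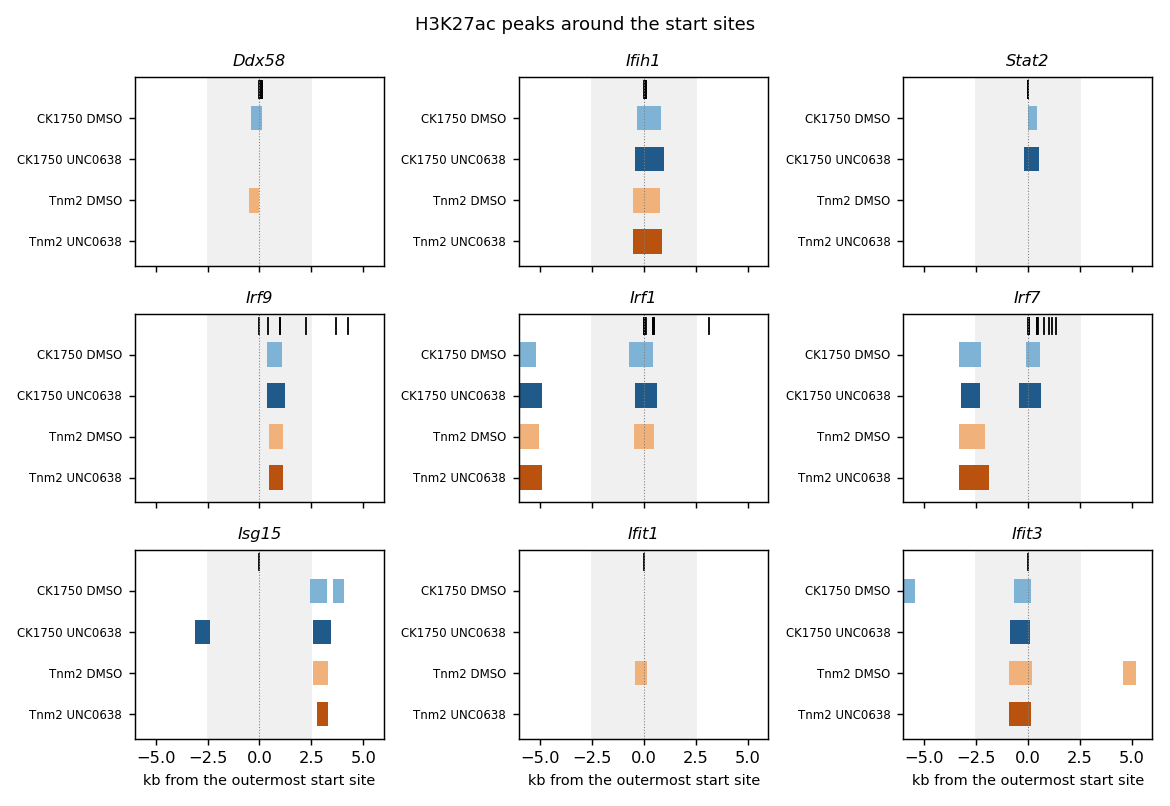
H3K27ac peaks of the 4 lists (bars) within 6 kb of the outermost start of each member, with upstream to the left, annotated starts of the gene as ticks and the window of 2.5 kb around the outermost start in grey. Ifih1 and Ifit3 have a bar over the start in every list and Ifit1 only in Tnm2 with DMSO, Ddx58 has a bar at or within 45 bases of the start in the DMSO lists and Stat2 at or within 18 bases of it in CK1750, while the bars of Isg15 touch only the rim of the window.

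Within 1 kb of a start, 7, 6, 6 and 3 members had a peak, and Ifih1, Irf9 and Ifit3 were those with one in every list. Peaks that covered an annotated start were found at 6, 6, 5 and 3 members. The shares over all protein-coding genes were not computed for these measures, and the treated Tnm2 list is the shortest, so the counts describe the members only.

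The question of the treatment comparison was whether inhibition of G9a and Glp went with more H3K27ac at these genes. In the full lists, no member had a promoter peak with UNC0638 that was absent with DMSO in the same line. This holds at the calling cutoff only. At scores of at least 100, Stat2 and Ifit3 of 6 members had a peak in treated but not in untreated CK1750, against 4.29% of all genes. With equally long lists Stat2 did so in CK1750 and Irf9 in Tnm2, against 4.51% and 5.23% of all genes. In CK1750, 1 of 8 members with a promoter peak with DMSO (Ddx58) had none with UNC0638, where 4.85% of all such genes did. Of the 7 with a peak with UNC0638, 0 were new, against 3.08% of all genes. Of the 7 members with a promoter peak in both lists, 2 (Stat2 and Ifit3) stood at a higher percentile with UNC0638, against 34.6% of all such genes. Among the peaks of equally long lists, Isg15 had no promoter peak with UNC0638, as did 4.67% of all genes with one with DMSO. The region by Agrn that counted for Isg15 with DMSO was kept with UNC0638 (51.3 and 51.9), but outside its window. Stat2 was new with UNC0638, against 4.51% of all genes. Of the 5 members with a peak in both, 2 (Irf9 and Ifit3) stood higher, against 46.2% of all genes. At scores of at least 100 the number of members with a promoter peak was 5 with DMSO and 6 with UNC0638, opposite in direction to 8 and 7. Over all protein-coding genes the numbers were 9888 and 9771.

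In Tnm2, 3 of 7 members (Ddx58, Irf1 and Ifit1) had no promoter peak with UNC0638, against 17.7% of all genes with a peak with DMSO. Of the 4 with a peak with UNC0638, 0 were new, against 1.45% of all genes. Of these 4, Irf9 alone stood at a higher percentile with UNC0638, against 11.3% of all genes. The percentiles of Ifih1, Irf7 and Ifit3 differed by -14.7, -14.3 and -10.7. Values as low as that of Ifih1 or lower were seen at 37.2% of all genes in the same comparison. With equally long lists, which moved the median of all genes from -9.52 to -0.293, Ifih1 still stood lower (-7.76), while Irf7 (1.77) and Ifit3 (27.2) stood higher. These 2 of 3 members compare with 47.6% of all genes. Ifit3 began at percentile 1.86 in the cut list, where a kept peak could hardly stand lower, so its direction says little.

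The median difference in percentile, UNC0638 minus DMSO, was -8.73 over 7 members in CK1750 and -2.24 over all genes. Without Isg15, whose peaks are different regions, the median over the other 6 members was -4.57. In Tnm2 the median was -12.5 over 4 members and -9.52 over all genes. The medians of the members in equally long lists were -7.52 over 5 in CK1750 and 1.77 over 3 in Tnm2, so the direction in Tnm2 turned. The middle 90% of all genes spanned -22.2 to 11.8 in CK1750 and -45.2 to 2.54 in Tnm2, so that in CK1750 only Stat2 and Isg15 lay outside it, and in Tnm2 Irf9 (3.7).

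**Figure D3:**
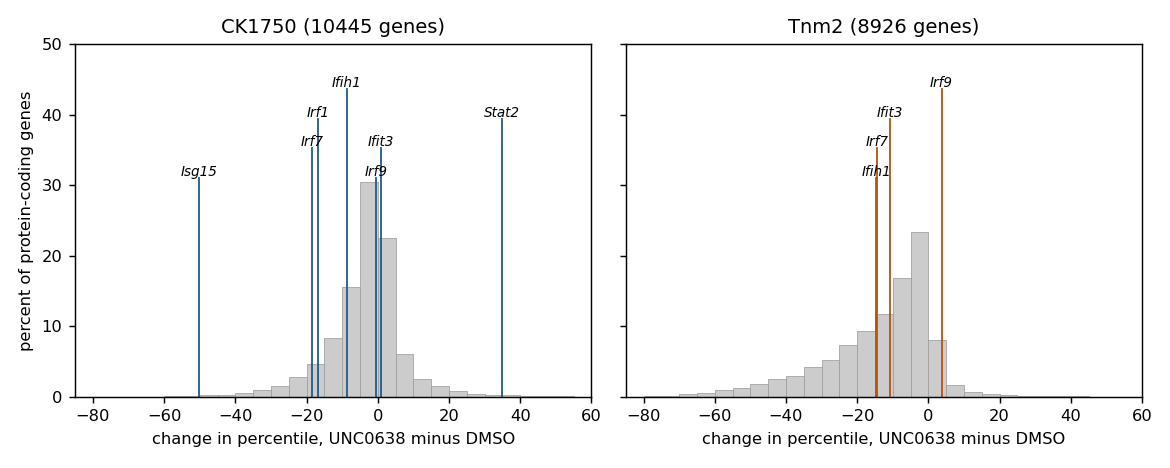
Difference in percentile of the highest promoter peak, UNC0638 minus DMSO, over all protein-coding genes with a promoter peak in both lists of a line (grey bars, percent of genes in steps of 5) and for the members (coloured lines, whose heights only separate the names). Stat2 (34.9) and Isg15 (-50.3, different regions) stand at the ends in CK1750, and the 4 Tnm2 members lie between -14.7 and 3.7, where the directions of Irf7 and Ifit3 turn with equally long lists.

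Peaks that were weak with DMSO were often absent with UNC0638 at genes in general. In Tnm2, the promoter peak was absent with UNC0638 at 79.7% of genes whose DMSO peak was below percentile 25, at 60.1% between 25 and 50, at 17.3% between 50 and 75 and at 0.639% above 75. Ifit1, Ddx58 and Irf1 came from the 3 lower classes in that order. In CK1750 the shares were 44.7, 17.9, 1.29 and 0.017%, and Ddx58 came from the lowest class, which also held Stat2. The part of depth in these absences was not tested.

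With the 18794 highest-scoring peaks of every list, so that all lists are equally long, 6, 6, 5 and 4 members had a promoter peak. Over all protein-coding genes, 10151, 10134, 9547 and 9057 did. In Tnm2, Ddx58 and Irf1 then had a promoter peak with DMSO only, and Irf9 with UNC0638 only. Over all genes, 10.1% of those with a peak in untreated Tnm2 and 5.23% of those with one in treated Tnm2 had it in that list alone.

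The lines were then compared under the same treatment. With DMSO, 2 of 8 members with a promoter peak in CK1750 (Stat2 and Isg15) had none in Tnm2, against 7.47% of all genes. For Isg15 this came from the edge of the window, because its region by Agrn had a peak in both DMSO lists (percentiles 66.5 and 65). In the other direction, 1 of 7 members in Tnm2 (Ifit1) had none in CK1750, against 6.34%. Of the 6 members with a peak in both lines, 4 stood higher in Tnm2 (Ddx58 by 20.1, Ifih1 by 15.5, Irf7 by 13.2 and Ifit3 by 5.65), against 50.3% of all genes. Irf9 and Irf1 stood lower, with differences of -8.66 and -18.9. The median difference was 9.41 over the members and 0.0441 over all genes. In equally long lists, Ddx58 had a peak in Tnm2 only and Irf9 and Isg15 in CK1750 only. The region by Agrn that counted for Isg15 was kept in both lines (51.3 and 43). Ifih1 and Irf7 stood higher in Tnm2 (20.7 and 14.7), Irf1 lower (-36.2), and Ifit3 turned to -2.26.

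With UNC0638, 3 of 7 members with a promoter peak in CK1750 (Stat2, Irf1 and Isg15) had none in Tnm2, against 18.7% of all genes. The Isg15 peak was the one by AW011738 at the rim of the window, 2362 bases or more from the start. Of the members with a peak in Tnm2, 0 of 4 were found in Tnm2 alone, against 3.21%. Of the 4 members with a peak in both, Ifih1 and Irf7 stood higher in Tnm2 by 9.51 and 17.4, and Irf9 and Ifit3 lower, with differences of -4.55 and -5.89. A higher percentile in Tnm2 was seen at 26% of all genes in this comparison. When the lists were equally long, all 4 stood higher in Tnm2 (Ifih1 by 20.4, Irf9 by 14.8, Irf7 by 35 and Ifit3 by 14.2), against 44.3% of all genes, so the directions of Irf9 and Ifit3 turned. Under both treatments and with both kinds of list, Ifih1 and Irf7 stood higher in Tnm2. For Irf7 this holds for the region upstream of its start only. At its own start Irf7 had a peak in CK1750 and none in Tnm2.

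Beyond the promoters, 42, 33, 35 and 22 distinct peaks lay within 50 kb of the 9 genes. With UNC0638 the number differed from that with DMSO by -21.4% in CK1750, where the whole list was at -10.1%, and by -37.1% in Tnm2, where the whole list was at -38.7%. The median number per member was 4, 3, 5 and 3, against 2 per protein-coding gene in each list. Equally long lists gave 29, 28, 24 and 22.

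Joined over the lists, the peaks formed 47 distinct regions. Of these, 17 had a peak in all 4 lists and 16 in 1 list. In CK1750, 10 regions had a peak with DMSO and none with UNC0638, and 4 the other way around. In Tnm2 the numbers were 14 and 0. Such regions were not counted over the whole lists, whose lengths with UNC0638 were at -10.1% and -38.7%. Most peaks lay at starts of neighbouring genes: only 3 peaks with DMSO in each line, and 0 with UNC0638, lay over 2.5 kb from any start.

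Irf9, in a gene-rich stretch with the proteasome activator genes Psme1 and Psme2, had 10, 6, 5 and 3 peaks. Psme1 and Psme2, which are themselves interferon-inducible, were the starts of 2 regions with a peak in all lists but treated Tnm2 (percentiles 68.5, 58 and 68.4, and 65.7, 66.9 and 61.4, the latter region shared with Rnf31). Ifit3 had 7, 3, 5 and 4 peaks. Stat2 had 7, 7, 5 and 2, and Ifih1 had 1 in every list but Tnm2 with DMSO, which had 2.

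**Figure D4:**
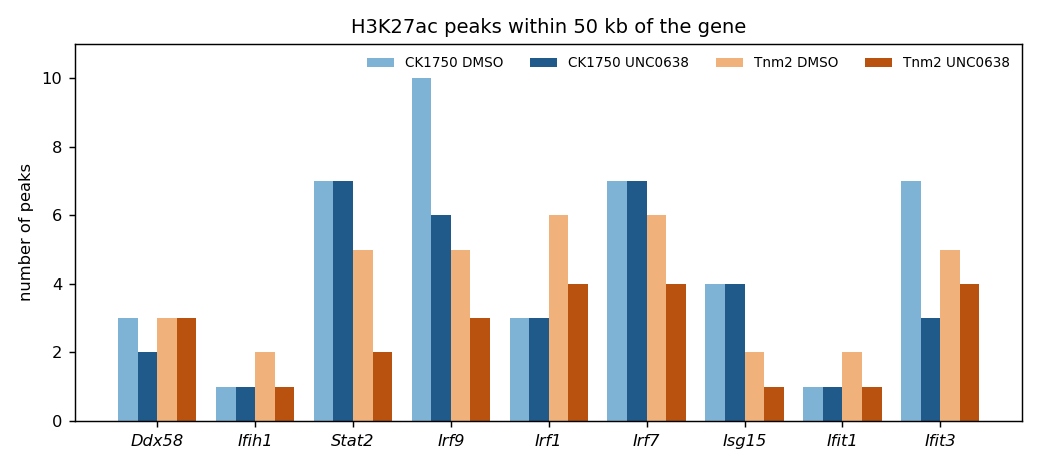
Number of H3K27ac peaks (y axis) within 50 kb of each member in the 4 lists. Irf9 and Ifit3 show the largest differences between the CK1750 lists (10 and 6, 7 and 3), Stat2 between the Tnm2 lists (5 and 2); a peak near both Ifit1 and Ifit3 is counted for both.

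The other genes of the pathway were described from 84 genes in 7 lists. Promoter peaks were present at 49, 47, 47 and 37 of them (58.3, 56, 56 and 44%), against 50, 49.1, 49.4 and 41.3% of all protein-coding genes. Their median percentiles were 73.6, 70.8, 80.3 and 72.4, so that where they had a peak it was ranked higher than those of the members. In CK1750, 5 of the 49 had no peak with UNC0638, against 4.85% of all genes, and 3 of 47 had one with UNC0638 only, against 3.08%. In Tnm2 the numbers were 10 of 47, against 17.7%, and 0 of 37, against 1.45%. In the presence of a promoter peak, no gene of the lists differed in the same direction in both lines. Among the members Ddx58 did in the full lists, a pattern seen at 0.665% of all genes. By percentile, genes of the lists did stand lower with UNC0638 in both lines, Traf3 for example (87.8, 76.3, 82.6 and 64.4).

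The ligands, 10 interferon genes, had 0 promoter peaks in every list. The receptors and kinases were marked almost throughout, at 9, 8, 8 and 8 of 9 genes. Of the kinases, Jak2 stood at percentiles of 95.7, 95.6, 96 and 97.3 and Jak1 at 90.4, 90.1, 88.5 and 81.7. Tyk2, the kinase bound to the Ifnar1 chain, had a peak in untreated CK1750 only (percentile 25.8), and was named after its values were seen. The receptor genes Ifnar2 and Il10rb had a peak in every list, with lowest percentiles of 78.9 and 72.

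Of 7 other factors, 3, 3, 4 and 2 had a promoter peak. Irf2, which opposes Irf1 at shared sites, was near the top of every list, at 97.8, 98.3, 99.2 and 99.1, and Stat3 stood at 81.6 or higher.

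Of 13 genes of RNA and DNA sensing, 9, 9, 8 and 6 had a promoter peak. Trim25, which ubiquitinates RIG-I, stood at 86.4, 85.9, 89.5 and 89.8 with its peak in all lists, unlike Ddx58 itself. The kinase Tbk1, the receptor Tlr3 and the adaptor Myd88 also had a peak in all lists, with lowest percentiles of 78.9, 76.7 and 74.9. Of the 4 genes of the Isg15 pathway, 2 (Uba7 and Herc6) had a peak in each list but treated Tnm2, where 0 did.

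Of 36 antiviral effectors, 21, 20, 20 and 17 had a promoter peak and 11 had none in any list. The GTPase gene Irgm1 stood at 95.6 or higher in every list, and Zc3hav1, which binds CpG-rich viral RNA, at 87.1 or higher. Isg20 and Dtx3l had lowest percentiles of 85.3 and 78.6. Trim21 had the pattern of Stat2, with a peak in CK1750 only (45.3 and 28.5), as did 453 protein-coding genes (2.06%). The feedback genes had a peak at 5, 5, 5 and 4 of 5, with the lowest percentiles of Socs1, Pias1, Trex1 and Socs3 at 72.2, 56, 41.2 and 30.5. Tnfaip3 was the one without a peak in treated Tnm2.

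**Figure D5:**
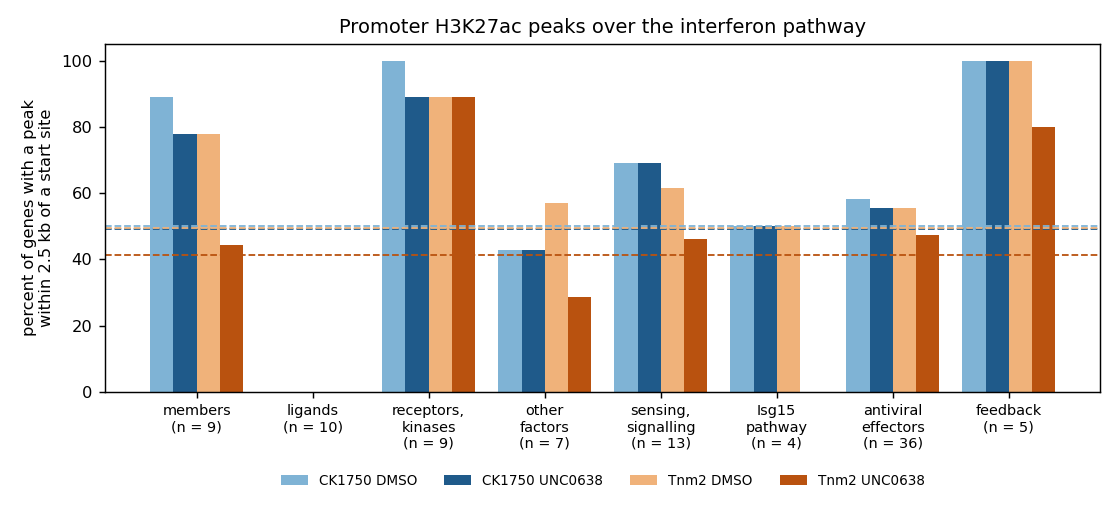
Percent of genes with an H3K27ac peak within 2.5 kb of a start (y axis) for the 9 members and 7 lists of other pathway genes, by list of peaks. Dashed lines are the shares of all protein-coding genes (50, 49.1, 49.4 and 41.3%); ligands have no bar because 0 of 10 had a peak in any list, and receptors and kinases stand at 88.9% or higher.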

How the data were processed

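H3K27ac chromatin was immunoprecipitated and sequenced by the authors. Per the submitters' notes and the methods of the study, Bowtie2 aligned the reads to mm10, SAMtools handled them, and MACS 1.4.2 called peaks with a P cutoff of 1e-05. The deposited value of a peak is a score, -10 log10 of P as the authors' caller gave it, so that the cutoff is a score of 50. Whether input DNA served as control, and which libraries entered a list, is not given in the sources used here. Read totals are unknown.

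From the lists, each peak was ranked within its own list by score. The percentile is the share of peaks in the list with a lower score. Start sites came from GENCODE M 21, promoter windows from RefSeq. A promoter peak overlapped 2.5 kb on either side of any start of the gene, and the highest-scoring one was used. Neighbourhood peaks overlapped the gene extended by 50 kb. The windows were read from the rule as 2 separate measures. Positions are 1-based, and 0 peaks ended beyond any of 21 chromosomes checked.

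Named were all 9 members and, per pathway list, up to 4 genes with the highest lowest percentile over the lists. Genes whose promoter presence differed in the same direction in both lines, and genes with the presence pattern of a member, were also named. The members and lists were chosen with earlier results of these data known. The 9 members were placed beside all protein-coding genes as a description. An item of the pathway lists is not reported here and is left out of their counts. No test between lists was made. The alternatives were a score of at least 100, equally long lists, other windows, the outermost start, ranking among promoter peaks, the nearest peak and merged peaks. The scripts were tested on simulated data. They ran under Python 3.11.15 with pandas 2.3.3, numpy 2.4.6 and matplotlib 3.10.9.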

Additional observations from a re-analysis of the deposited data

Results flagged for a closer look

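With UNC0638, 2 members stood higher in one line and lower in the other. With 1 list per group these differences between lines were not tested. For Irf9 the percentile differed by -0.401 in CK1750 cells against 3.7 in Tnm2 cells. For Ifit3 the values were 0.82 against -10.7. With equally long lists the opposite directions did not remain: Ifit3 stood higher in both lines (10.8 and 27.2), and Irf9 stood higher in CK1750 (8.65) and had a kept peak with UNC0638 only in Tnm2.

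Among the regions within 50 kb that had a peak in all 4 lists and did not lie at a member's own start, 6 had opposite directions in the lines, also not tested. The region at Ndufb6 near Ddx58 differed by -2.7 in CK1750 cells and 3.3 in Tnm2 cells. The region at Cdhr5 near Irf7 differed by -10.3 and 13.6. The other 4 stood higher with UNC0638 in CK1750 and lower in Tnm2, where all genes with a promoter peak in both lists had a median of -9.52. They lay at Pan2 near Stat2 (0.1 and -4.7), at Mir7671 upstream of Irf1 (2 and -16.9), at Lmntd2 and Rassf7 near Irf7 (7.8 and -24.5) and at Ifit2 near Ifit3 (2.9 and -17.2). With equally long lists, 4 of the 6 still differed in opposite directions: Cdhr5 (-6.59 and 44.6), Mir7671 (4.16 and -13.3), Lmntd2 and Rassf7 (12.5 and -13.3) and Ifit2 (6.68 and -10.9). Ndufb6 (1 and 27.3) and Pan2 (1.71 and 1.67) did not. Regions not flagged in the full lists took opposite directions with equally long lists. These were Ifit3b (-10.9 and 22.8), the region upstream of Irf7 (-18.5 and 1.77) and Agrn (0.628 and -36.9). Smaller differences were seen at Tm9sf1 (-2.47 and 2.03) and Phrf1 (-2.68 and 0.319). Opposite directions were thus common among these regions, and their share over the whole lists was not computed.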

How the results depend on the processing

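No paired analysis was possible because each list pools the libraries of its group, and for the same reason no replicate could be left out. The 16 results had 100 alternative values. Of these, 68 stayed within 1.5 times the count reported or, for medians, within the Wilson 95% interval of the median as a share of its list, and 32 moved. That interval rests on the number of peaks in the list, not on the few members, so it measures no spread of the members. The 2 numbers are thus a tally by set limits and no measure of robustness. The causes of the moves were not tested, except that shorter lists and narrower windows hold fewer peaks by construction. Values below follow the order CK1750 DMSO, CK1750 UNC0638, Tnm2 DMSO, Tnm2 UNC0638. With a score of at least 100, 5, 6, 5 and 2 members had a promoter peak, against 9888, 9771, 9631 and 7014 of all 21951 protein-coding genes. In CK1750 the treated list thus held more members rather than fewer. The median percentiles were 46.9, 12.7, 20.6 and 43.6. Members at a higher percentile with UNC0638 numbered 1 in CK1750 and 0 in Tnm2, and 2 stood higher in Tnm2 with DMSO. In CK1750 DMSO 26 peaks lay within 50 kb. With equally long lists 6, 6, 5 and 4 members had a promoter peak, the medians of the first 3 lists were 47.5, 22.2 and 18.9, 2 members stood higher with UNC0638 in Tnm2, and 2 with DMSO and 4 with UNC0638 stood higher in Tnm2 than in CK1750. Within 1 kb of a start the medians were 34.2 in CK1750 DMSO and 32.7 in Tnm2 UNC0638, and 1 member stood higher in treated Tnm2 than in treated CK1750. Within 5 kb 8, 7, 8 and 6 members had a promoter peak, so that treated Tnm2 held 6 members rather than 4. The shares over all genes were not computed for this window. Its medians were 43 in CK1750 UNC0638 and 45.5 in Tnm2 DMSO, and 2 members stood higher with UNC0638 in Tnm2. Ranked among promoter peaks alone the medians were 32.2, 22.9, 25.6 and 35.2, and for the nearest peak 35.9 and 37.3 in CK1750. Within 10 kb of the genes lay 13, 11, 11 and 8 peaks. The outermost start gave the same values. Of the 2 alternatives chosen after seeing the data, a covered start gave 6, 6, 5 and 3 members, within 1.5 times the counts reported. The other, the same region, took out only Isg15 in CK1750, which stood lower with UNC0638. Its counts of members standing higher therefore could not change.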
